A study of Homo sapiens with 2 samples.

Results

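Loci known only by an Ensembl gene identifier were followed in RNA of 95D cells, an established human lung cancer line, after nutrient deprivation. They were the names in the deposited tables that start with ENSG and carry a number, and 1937 of the 9253 names with a value met this rule. Ensembl gives every annotated gene such an identifier, and many genes also have a symbol. Genes left with the identifier alone are mostly long non-coding RNAs, transcribed pseudogenes and other loci whose function has not been worked out. Long non-coding RNAs are transcribed and often spliced like messenger RNAs but are not translated into a known protein, and most are made at low levels. The identifier itself carries no information on position, sequence or function.

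The series holds 2 samples of WT 95D cells. Cells were kept for 24 h in complete DMEM and then for 48 h either in glucose-free or in glutamine-free DMEM, each with 10% dialyzed FBS. They are called the glucose-free and the glutamine-free library below. With 1 library per medium there is no replicate error to set a difference against, and no test was run. The title and design text speak of RNA pulled down with an antibody to ALKBH5, an m6A demethylase, and of an input control, whereas the labels of both samples give total RNA, and neither label says which role its library has. A lower value in 1 library could reflect its medium, its unstated role, its depth, or the cells and RNA per cell behind it. With 1 library per medium these cannot be told apart. No sample without deprivation was analysed here.

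The listed transcripts held 42827 recovered reads in the glucose-free and 1442570 in the glutamine-free library. These read numbers were recovered from the equal steps between the deposited values. How the authors adjusted the values is not stated, so they are taken for sequenced reads only on the evidence of those steps, and so are all counting intervals below. The files head the name column as long non-coding RNA names, yet 6265 of the 9253 names with a value are symbols other than LINC, -AS or XLOC names, many of them those of ordinary genes. Of 6 epithelial marker names fixed for the cell type, 4 carried a value. All of these were above 0 in the glutamine-free library and 1 of them, KRT8, a keratin of simple epithelia, in the glucose-free library. EPCAM and CDH1, the epithelial adhesion molecules, had rows without a value. Of 3 lung lineage names, NAPSA, an aspartic protease of alveolar cells, carried a value, at 161 in the glucose-free and 18.9 in the glutamine-free library. Both mesenchymal names did, FN1, fibronectin, at 344 and 963 and VIM, vimentin, at 0 and 75.9. None of 5 markers of leukocytes, endothelium, fibroblasts or red cells carried a value. PECAM1 and CD68 among these, and NKX2-1 among the lung lineage names, had no row listed and could not carry one. Which part of a gene's RNA a row covers is not stated, so a marker without a value is not read as absent from the cells.

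Values were not divided by transcript length, and lengths were not used here. An order of loci below is therefore an order of read signal within a library and not of molecules. The reference tables matched 0 of the 1937 identifiers, so neither gene classes nor coordinates nor sequences are printed. Reads shared with overlapping genes, antisense partners or near-identical copies cannot be told apart in these values.

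Most listed Ensembl-named loci carried no value at all. The tables listed 13248 such identifiers on 23496 transcript rows. A number stood on 2207 of the rows, or 9.39% (95% Wilson interval 9.03 to 9.77%), and the other 21289 rows held a mark instead. By row, the share was near that of antisense RNAs named with -AS, 9.12% (8.53 to 9.75%), above that of intergenic RNAs named LINC, 3.44% (3.14 to 3.77%), and below that of the remaining symbols, 32.1% (31.7 to 32.5%). Counted by name, 14.6% (14.0 to 15.2%) of the Ensembl identifiers had a value, against 24.8% (22.9 to 26.9%) of antisense names, 11.3% (10.1 to 12.7%) of LINC names and 53.9% (53.0 to 54.8%) of the remaining symbols. Every valued row of the members rested on at least 2 recovered reads over both libraries, and 162 rows rested on exactly 2. The same floor of 2 reads held over all 18663 valued rows of the tables. All shares that follow are of names with a value.

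The members split very unevenly between the libraries. In the glutamine-free library 1924 of the 1937 were above 0, and in the glucose-free library 37 were. Both libraries listed 24 of them above 0, the glutamine-free library alone 1900 and the glucose-free library alone 13. The 37 are 1.91% of the members (1.39 to 2.62%), against a background of 4.25% of all names above 0 in that library and 4.87% (4.40 to 5.38%) of the names outside the set. The 99.3% above 0 in the glutamine-free library stands beside 99.5% of all names. On the log2(value + 1) scale, 1905 members stood 2-fold or more higher in the glutamine-free library, 98.3% of them against 97.4% of all names. In the other direction 27 members stood 2-fold or more higher in the glucose-free library, 1.39% against 1.42% of all names. With each library rescaled to a sum of 1000000 these counts were 1901 and 36, or 98.1% and 1.86%, against 96% and 3.75% of all names. The glucose-free library lists 1900 of the 1905 at 0, so no fold is given for them. Since a valued row needs at least 2 reads over both libraries, a locus at 0 in the glucose-free library stands at 1.56 or more in the other and passes 2-fold by that alone. These 1900 calls, and their counterparts among all names, were thus fixed by which rows carry a value, and their share is no result about the members. As deposited, the shares of members past 2-fold lay near the background in both directions; after rescaling the share higher in the glucose-free library lay below it.

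Ensembl-named loci had the lowest median of the 5 classes of names in the glutamine-free library. Their median value above 0 was 10.3, with quartiles of 4.73 and 21.3, and the highest was 1726. The corresponding medians were 14.99 for LINC names, 17.4 for antisense names, 17.0 for the assembled XLOC loci and 30.02 for the remaining symbols. A median member rested on 13 reads, for which counting error alone gives a 95% interval of 6.92 to 22.2 reads. Of the 1924, 814 or 42.3% rested on 10 reads or fewer, against 18.7% of the names outside the set, and 102 or 5.30% rested on 100 or more, against 23.6%. The classes differ in the number of transcript rows summed per name. Per row, the median above 0 was 9.47 for the members, 11.8 for LINC and antisense names alike, 14.2 for the remaining symbols and 17.8 for XLOC loci, so the gap was smaller than by name for all but the XLOC loci.

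**Figure D1:**
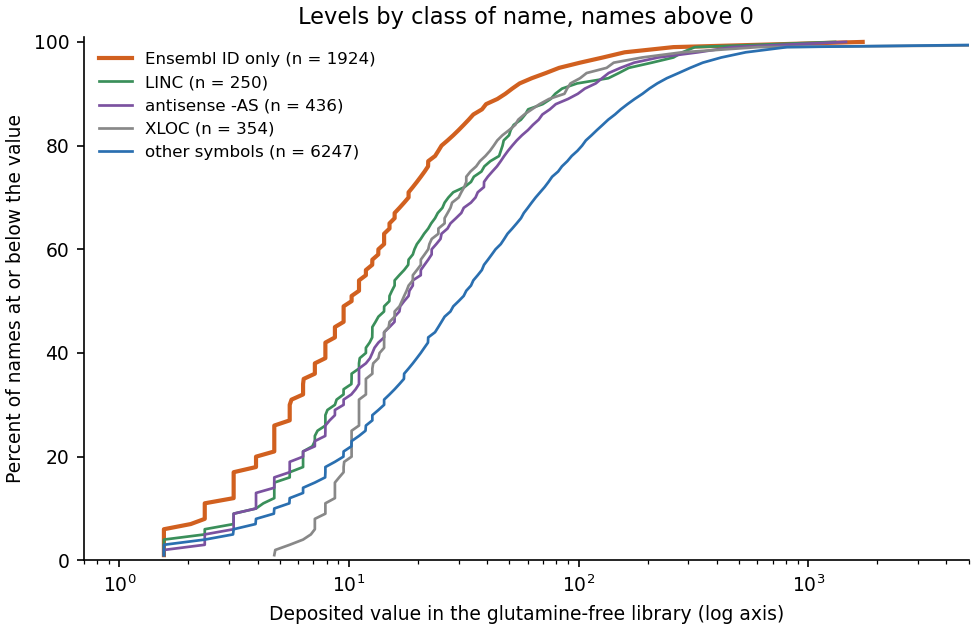
Cumulative distribution of the deposited value in the glutamine-free library (x, log axis) for names above 0, by class of name (y, percent of names at or below the value). The curve of the 1924 Ensembl-named loci lies to the left of the others over its middle range, with a median of 10.3 against 14.99 to 30.02 in the other classes, and few XLOC loci lie at the lowest values.

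The sum of the members' values was 3194 in the glucose-free and 47417 in the glutamine-free library. This is 5.90% of the recovered reads of the former (5.68 to 6.13%) and 4.16% of the latter (4.13 to 4.19%). A single locus outside the set, XLOC_220679, took 12.99% of the values of the glucose-free and 38.8% of those of the glutamine-free library. With that locus left out of the totals, a setting fixed with earlier results of these data known, the shares were 6.78% (6.53 to 7.04%) and 6.79% (6.74 to 6.85%), which differ by less than their counting error. In the same setting LINC names held 1.15% (1.05 to 1.26%) and 1.51% (1.48 to 1.53%), and antisense names 3.31% (3.13 to 3.49%) and 2.80% (2.77 to 2.84%). The number of loci behind these near-equal shares differed: members made up 37 of the 393 names above 0 in the glucose-free library, or 9.41%, and 1924 of 9211, or 20.9%, in the other. The intervals cover counting error alone, as reads that carry no molecular identifier are not independent molecules.

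The members' signal sat on far fewer loci in the glucose-free library. Its 10 highest members held 47.8% of the members' total there, while the 10 highest of the glutamine-free library held 15.6% of theirs and the 50 highest 33.1%. With 37 members above 0, the 10 highest are a much larger part of those seen, which by itself raises their share. These shares therefore do not show in which library the signal was less evenly spread. The 37 seldom sat at low read numbers. Their median was 88.5, or 70 reads, 2 of them rested on 10 reads or fewer, and 9 on 100 or more. On the deposited scale, this median lies above the upper quartile of the members in the glutamine-free library, 21.3, a comparison that depends on the unstated scale between the libraries. The names outside the set also had a high median there, 104, with 14.3% of them on 10 reads or fewer.

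Of the 12 members with the highest values without glutamine, 10 stood at a listed 0 in the glucose-free library. ENSG00000242588 led with 1726 on a single row, 3.64% of the members' total, and was listed at 0 in the other library. ENSG00000291060 followed with 1049.7 summed over 4 rows, of which the highest carried 674. ENSG00000291117 stood at 749.8 over 7 rows, the highest at 488. For these leading loci, then, 1 transcript row carried most of the sum, as it did for the next ones with several rows. ENSG00000290832 stood at 645 over 5 rows, led by rows at 374 and 185. ENSG00000291073 stood at 604 over 3 rows, led by 1 at 558. ENSG00000291136 stood at 561 over 6 rows, led by rows at 401 and 122, and ENSG00000290796 at 342 over 4 rows, led by 1 at 293. ENSG00000272405, at 609.9, ENSG00000276232, at 544, and ENSG00000260267, at 338, each rested on a single row and were listed at 0 in the glucose-free library like the foregoing. The 2 exceptions were ENSG00000267645, at 561 here and 89.8 in the glucose-free library, and ENSG00000264772, at 349 here and 1.29, a single read, in the glucose-free library.

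The highest members of the glucose-free library were mostly other loci. ENSG00000268205 led at 214, and stood at 319 in the glutamine-free library, where it ranked 15 among the members. ENSG00000276097 came next at 186 and was listed at 0 in the other library. ENSG00000286535 stood at 181 and, in the glutamine-free library, at 0.77, the value of 1 read. None of the 12 highest members of the glucose-free library was among the 12 highest of the other. Further down, ENSG00000279175 stood at 164 and 53.8, ENSG00000263244 at 134 and 216, and ENSG00000259623 at 131 and 25.3 in the glucose-free and glutamine-free library in turn. ENSG00000230551 and ENSG00000261659 were level at 126 in the glucose-free library and stood apart at 301 and 49.8 in the other. At these read numbers the order within the glucose-free library is loose. The leading locus had 169 reads, with a 95% counting interval of 144 to 196, and that of the next one, 147 reads (124 to 173), overlaps it.

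**Figure D2:**
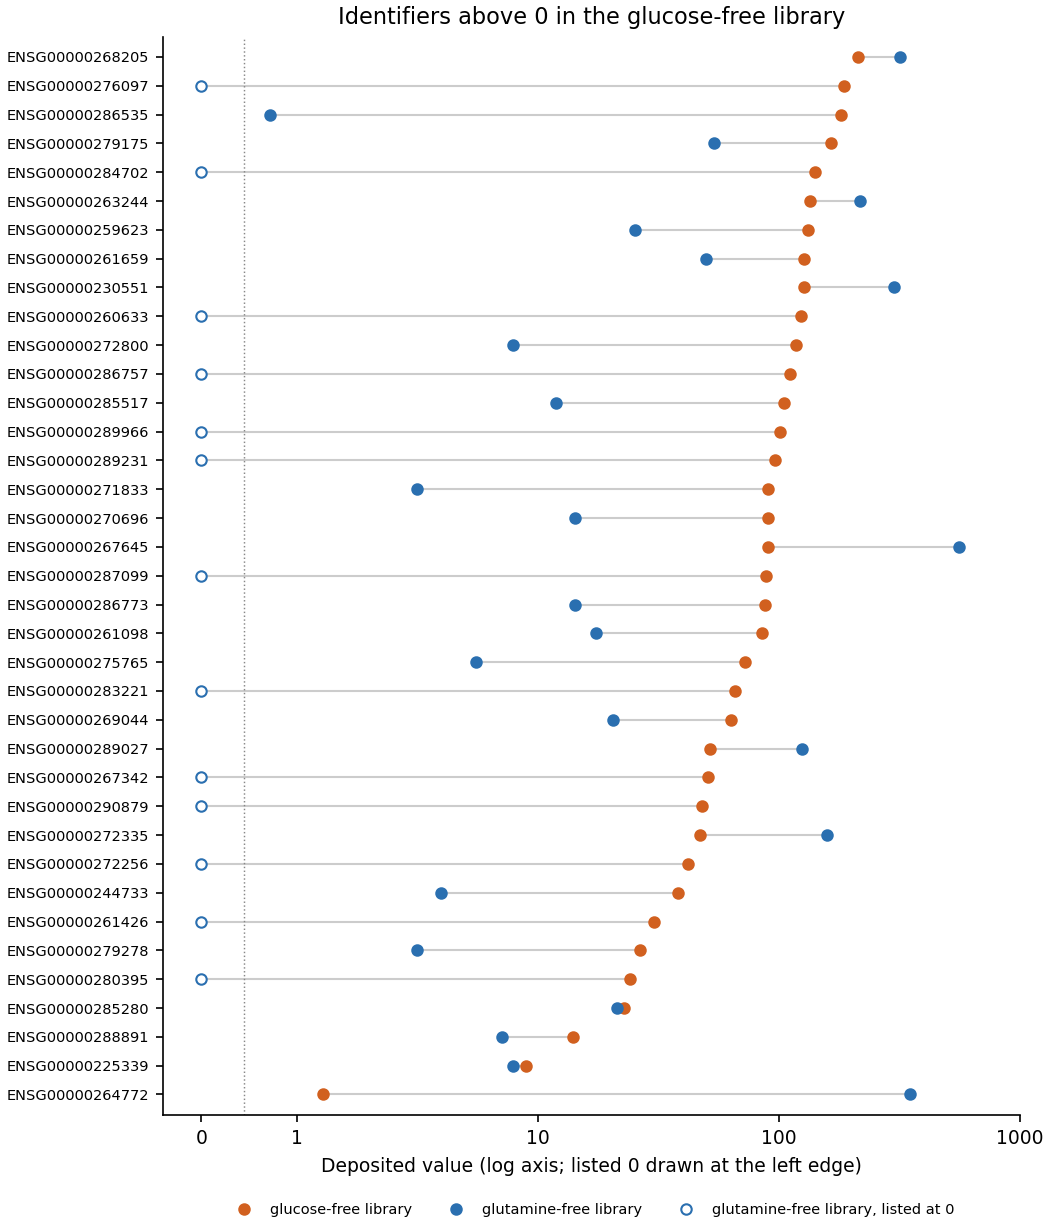
Deposited value (x, log axis, a listed 0 drawn at the left edge) of each of the 37 Ensembl-named loci above 0 in the glucose-free library, ordered by that value, in the glucose-free (orange) and glutamine-free (blue, open where listed at 0) library. Of these loci, 13 are listed at 0 in the glutamine-free library, and 7 stand higher there than in the glucose-free library on the deposited scale.

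For the 24 members above 0 in both libraries, the direction depended on the scale between the libraries. As deposited, 17 were higher in the glucose-free and 7 in the glutamine-free library. By at least 2-fold it was 14 and 5, or 58.3% and 20.8% of the 24, beside 25.4% and 42.2% of all 351 names above 0 in both. Most of the 351 are the remaining symbols, with 65 and 135 of 303. In the same order, XLOC loci gave 5 and 4 of 9, antisense names 4 and 3 of 10 and LINC names 1 and 1 of 5. A lean to the glucose-free library is thus not shown to be particular to the members. The median log2 ratio, glutamine-free minus glucose-free, was -1.58 for the members and 0.61 for all 351 names. Rescaling each library to the same sum shifts ratios by up to 4.40. It gave 23 members at least 2-fold higher in the glucose-free and 1 in the glutamine-free library, or 95.8% and 4.17%, beside 86.9% and 5.98% of all 351 names, with medians of -5.96 for the members and -3.77 for all 351. The members' median lay below that of all such names as deposited. Rescaling shifts nearly all names above 0 in both libraries by a similar amount, so the same order on that scale is no separate result. These medians are given as a description.

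The glucose-free library was the higher one by 2-fold or more as deposited for 14 of the 24. Rescaling moves every ratio further toward that library, so these 14 could not change on that scale. The widest gap was that of ENSG00000286535, given above, at a log2 ratio of -6.68 as deposited. ENSG00000271833 stood at 89.8 in the glucose-free and 3.15 in the glutamine-free library, a log2 ratio of -4.45, and ENSG00000272800 at 118 and 7.89, a ratio of -3.74. ENSG00000275765 stood at 72.1 and 5.52, a ratio of -3.49. The values of these last 3 in the glutamine-free library rest on 4, 10 and 7 reads. ENSG00000270696 and ENSG00000286773 stood at 89.8 and 87.2 in the glucose-free library and both at 14.2 in the other, and ENSG00000261098 stood at 84.7 and 17.4. ENSG00000269044 stood at 63.2 and 20.55, ENSG00000244733 at 37.9 and 3.94, and ENSG00000279278 at 26.6 and 3.15.

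A single member was at least 2-fold higher in the glutamine-free library under both scales. This was ENSG00000264772, at a log2 ratio of 7.26 as deposited and 3.63 after rescaling, and its value in the glucose-free library is that of 1 read (95% counting interval 0.03 to 5.57 reads). Another 4 stood 2-fold or more higher there as deposited and 2-fold or more lower after rescaling. ENSG00000267645 had log2 ratios of 2.63 and -1.75 in turn. ENSG00000272335, at 46.8 and 158, had 1.74 and -2.63. ENSG00000230551 had 1.25 and -3.14, and ENSG00000289027, at 51.9 and 125, had 1.25 and -3.12. No direction is given for these 4.

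The 13 members above 0 in the glucose-free library alone ranged from 24.0 to 186, with a median of 88.5, the same as that of the 24 found in both. After ENSG00000276097 came ENSG00000284702 at 140.3, ENSG00000260633 at 124, ENSG00000286757 at 111 and ENSG00000289966 at 101.2. ENSG00000289231 stood at 96.1, ENSG00000287099 at 88.5 and ENSG00000283221 at 65.8. These loci rest on 52 reads or more, well above the lowest values of the library. The remaining 5 were ENSG00000267342 at 50.6, ENSG00000290879 at 48.1, ENSG00000272256 at 41.7, ENSG00000261426 at 30.4 and ENSG00000280395 at 24.0. Each of the 13 had 1 valued row. A row at 0 in the glutamine-free library carries a value only because it is above 0 in the other, and further rows of ENSG00000286757, of which 8 are listed, and of ENSG00000290879, of which 2 are, held none. For ENSG00000286757 and ENSG00000290879 the listed 0 therefore does not cover every row. For the others, with 1 row listed each, it rests on 1 row of 1 library. In neither case is it read as a locus silent without glutamine. The 13 are 30.95% of the 42 names of any class found in the glucose-free library alone, and members are 20.9% of all names with a value.

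How often a member was listed above 0 in the glucose-free library varied with its level in the other. Of members with more than 100 reads in the glutamine-free library, 7 of 102 were above 0, or 6.86% (3.36 to 13.5%). With 31 to 100 reads it was 3 of 307, or 0.98% (0.33 to 2.83%), with 11 to 30 reads 6 of 701, or 0.86% (0.39 to 1.85%), and with 1 to 10 reads 8 of 814, or 0.98% (0.50 to 1.93%). Names outside the set gave 11.8% (10.4 to 13.5%), 3.53% (2.82 to 4.40%), 1.34% (0.93 to 1.93%) and 1.62% (1.07 to 2.44%) in the same order. In the lowest range the share is partly set by which rows carry a value, since a row with 1 read in the glutamine-free library, which 1 member and 23 rows in all had, carries one only with a read in the other. The members' share was lower in each of the 4 ranges, and the intervals overlapped in each, narrowly so from 31 to 100 reads. No test of these differences was run.

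**Figure D3:**
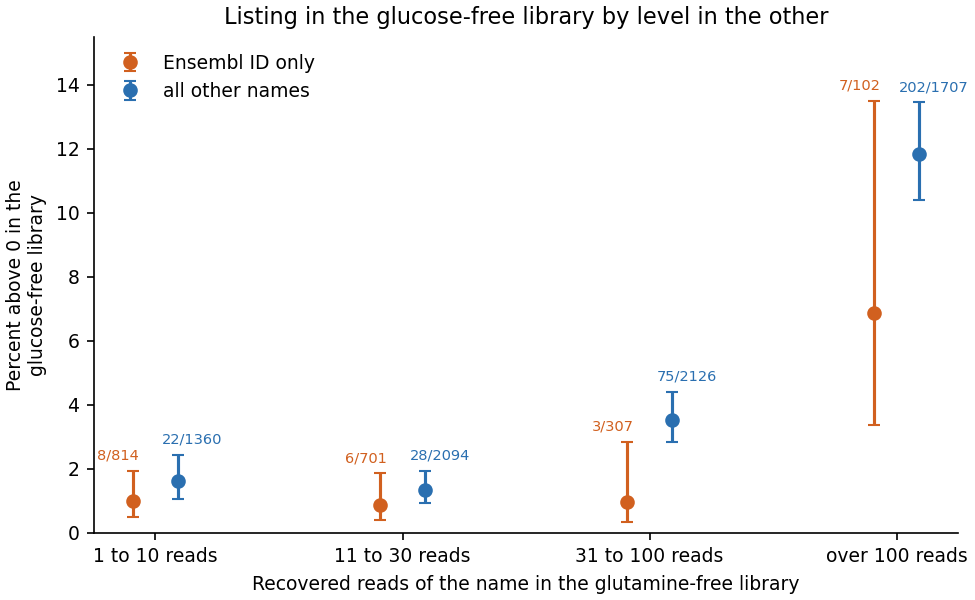
Percent of names above 0 in the glucose-free library (y) by their recovered reads in the glutamine-free library (x), for Ensembl-named loci (orange) and all other names (blue). Points are shares, bars are 95% Wilson intervals for counting error, and the numbers give names above 0 over names in the range; members reach 6.86% above 100 reads and 0.98% or less below it.

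Most Ensembl-named loci rested on 1 transcript row. Of the 1937, 1778 had a single valued row and 159, or 8.21%, had more, against 47.8% of the names outside the set, 33.3% of LINC names and 33.1% of antisense names. Of the 1778, 1432 have only 1 row listed and could not have more, and 346 have several listed. The tables list 23496 rows for 13248 Ensembl identifiers and 13128 rows for 2224 LINC names. These shares therefore depend on how many rows are listed per name. The 159 held 25.4% of the members' total in the glutamine-free library. Their median value was 31.6, against 9.47 for members with a single row, and 22.1 when their highest row alone was counted. Within them, the highest row held a median of 64.7% of the locus. ENSG00000213963 and ENSG00000285756 had the most valued rows, 9 each. The rows of ENSG00000213963 ran from 2.35 to 53.8 and summed to 164, and those of ENSG00000285756 from 3.15 to 48.2, summing to 149. ENSG00000291178 had 8 valued rows of 136 listed, the most listed rows of any member, and summed to 121. ENSG00000291203, with 7 valued rows, had no leading row, since its highest ones stood at 32.4, 30.8, 23.7 and 21.3.

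In the glucose-free library each of the 37 members above 0 had exactly 1 row above 0. Only 3 of the 37 had more than 1 valued row. For ENSG00000285517 the libraries listed different rows: the row at 105 in the glucose-free library stood at 0 in the other, and the row at 11.8 in the glutamine-free library stood at 0 in the former. ENSG00000288891 showed the same, with 13.9 on 1 row and 7.10 on the other. In ENSG00000285280 the row at 22.8 in the glucose-free library was also its highest in the other, at 11.8, with further rows at 7.89 and 1.56 there. Counted by row, therefore, 22 rows were above 0 in both libraries, 15 in the glucose-free library alone and 2170 in the glutamine-free library alone.

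The members were also grouped by the start of their identifier number, a grouping chosen after values had been seen and given without a test. Ensembl numbers genes as records are created, so a higher number in general means a later record. Identifiers starting with ENSG0000029 made up 170 or 8.78% of the members and 22.0% of their total in the glutamine-free library. Their median there was 16.6, against 9.47 for all others, and 35.9% of them had more than 1 valued row, against 5.55%. The number of rows listed per identifier was not compared between these groups. Among members with a single row the medians were 10.3 and 9.47, a smaller gap than over all members. They supplied 6 of the 12 and 14 of the 50 highest members of the glutamine-free library. In the glucose-free library 1 of the 170, ENSG00000290879, was above 0, or 0.59% (0.10 to 3.26%), against 36 of the other 1767, or 2.04% (1.48 to 2.81%). The members above 0 there came mostly from identifiers starting with ENSG0000028, ENSG0000026 and ENSG0000027, with 13, 10 and 9 loci, which are also the largest blocks, with 508, 361 and 433 members.

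**Figure D4:**
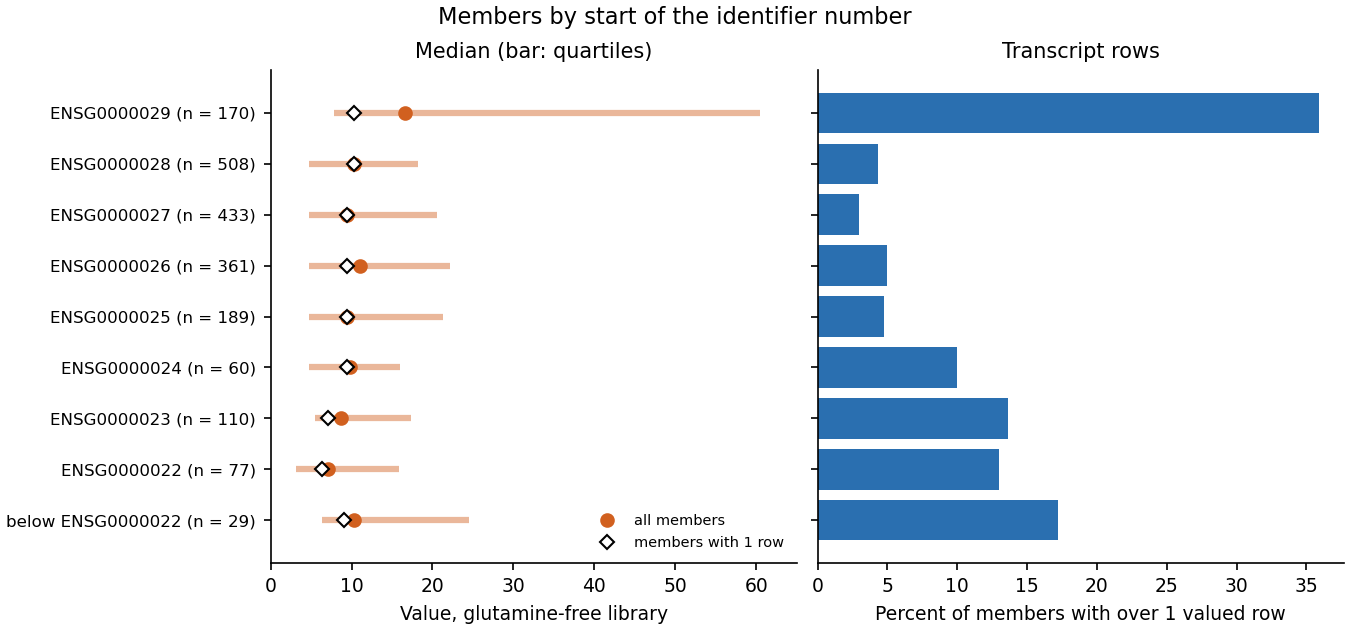
Members grouped by the start of the identifier number (y, with the number of members). Left, median (orange point) and quartiles (bar) of the value in the glutamine-free library (x) and the median of members with 1 valued row (diamond). Right, percent of members with more than 1 valued row (x). ENSG0000029 stands apart with a median of 16.6 and 35.9% of members with several rows, and its median falls to 10.3 among members with 1 row.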

How the data were processed

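Per the labels' protocols, total RNA was depleted of ribosomal RNA and sequenced paired-end. The submitters' processing notes name HISAT2 2.0.5, StringTie and the build hg38, without roles or settings; which counter, annotation, filter and scaling produced the values is not given in the sources used. The deposited values state no unit. They climb in steps of 1.264 in the glucose-free and 0.791 in the glutamine-free library, with fitted offsets of 0.022 and -0.018, and dividing by the step gave whole reads within 0.1 for 100% of values up to 1000 reads. Values under 1e-09 were set to 0, rows without a number were left out, and rows were summed per identifier. Whether the authors adjusted the counts further is not known. How the step was chosen is not stated, and it sets every ratio between the libraries. The table of the whole series repeats these values and was left out.

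Ratios are log2(value + 1), glutamine-free minus glucose-free. They understate differences of low loci. Intervals are 95% Wilson or exact Poisson intervals and cover counting error only. Members, lists and settings were chosen with earlier results of these data known. Named loci are the 12 highest of each library, the 20 highest in the glucose-free library of those above 0 in both, all 13 found there alone, the 5 with the most valued rows and members of groups of 5 or fewer. Alternatives covered scale, pseudocount, minimum, threshold and row handling. Step recovery was tested on simulated data. Ratio calls were tried only on simulated libraries of near-equal depth without low names. The 2 libraries here differ from that setting, so the trial does not vouch for their ratios. Python 3.11.15, pandas 2.3.3, numpy 2.4.6 and scipy 1.17.1 were used.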

Additional observations from a re-analysis of the deposited data

How the results depend on the processing

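Of the alternatives tried for the counts, shares and median of the members, 10 values moved and 24 did not, which for a count means within 1.5 times. Several outcomes were fixed in advance, so this tally does not measure how robust the results are. An identifier's highest row is above 0 exactly when its sum is. The 1900 members at 0 in the glucose-free library pass with a pseudocount of 0.1, at 1.5-fold and by highest row through the floor of 2 reads. Among the values that did not move, a minimum of 5 left 1415 members in the glutamine-free library and 1400 of the calls higher there. Counting rows gave 2192, and rescaling gave 36 for 27 in the opposite direction. Centring the log2 ratios on the median of all names, 4.32, gave 230 members at least 2-fold higher in the glutamine-free and 902 in the glucose-free library. Most names behind that median, 8860 of 9253, are above 0 in the glutamine-free library alone. As 37 members are above 0 in the glucose-free library, most of the 902 are listed at 0 there. Centring sorts such loci by their level in the glutamine-free library alone, so these counts show no direction. The share of all names was not counted in this setting. As deposited, members above 0 in both libraries gave 5 higher in the glutamine-free and 14 higher in the glucose-free library. Leaving XLOC_220679 out of the totals moved the members' share to 6.78% in the glucose-free and 6.79% in the glutamine-free library. The 10 highest members of the glutamine-free library held 13.2% without the leading one and 14.5% by highest row. The 50 highest held 33.1% there and 100% in the glucose-free library, where 37 members are above 0, so that the 100% was fixed in advance. Among members at least 2-fold higher in the glutamine-free library as deposited, rescaling reversed the log2 ratio of ENSG00000230551 (-3.14), ENSG00000267645 (-1.75), ENSG00000272335 (-2.63) and ENSG00000289027 (-3.12), and so did centring (-3.07, -1.69, -2.58 and -3.07 in turn). Under 2-fold, ENSG00000268205 and ENSG00000263244 changed sign too, to -3.81 and -3.70 on rescaling and -3.74 and -3.64 on centring. Centring shifts all names by the same amount, and rescaling shifts nearly all names above 0 in both libraries by a similar one. Loci at 0 in the glucose-free library hardly move on rescaling. The log2 ratio of ENSG00000242588, for example, went from 10.75 to 10.56. Alternatives limited to identifiers without a symbol in the reference tables were not run, since 0 identifiers matched. No paired analysis was possible because each condition has 1 library. No upper limit is set on a listed 0 in the glucose-free library, as its full depth is not known.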

Other observations

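At low read numbers, even ones were more common than odd ones among the members' rows in the glutamine-free library, a pattern noticed in the data. In that library 162 rows rested on 2 reads, 109 on 3, 134 on 4, 80 on 5 and 130 on 6. From 3 to 20 reads, a span with as many odd as even numbers, 726 rows had an even and 618 an odd number, so that 54.0% were even (95% Wilson interval 51.3 to 56.7%). Outside the set the share was 50.96% (49.9 to 52.1%) of 7948 rows. The 2 intervals overlap, and as the pattern was noticed in these same rows, they are no test of it. From 21 to 50 reads the even share was 53.0% (48.5 to 57.5%) of the members' 464 rows, and from 51 to 100 reads 47.2% (38.7 to 55.9%) of 125. The cause was not tested.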
